A study of Homo sapiens with 26 samples.

Results

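The HOX genes of clusters A to D were described here in human small cell lung cancer (SCLC) lines, as every gene whose symbol is HOXA, HOXB, HOXC or HOXD followed only by digits. That rule, which uses no measured value, found 39 genes (11 HOXA, 10 HOXB, 9 HOXC and 9 HOXD) among 19117 genes measured in parental lines and 19128 in knockout cells. The series targeted POU2F3, a transcription factor of tuft cells, by lentiviral infection with guide RNAs in 4 SCLC lines. Each line had sgPOU2F3 cells, infected with either of 2 guides, and sgNeg cells, infected with a control guide, and was harvested at day 4 (NCI-H211 and NCI-H1048) or day 5 (NCI-H526 and COR-L311). Untreated parental cells of 14 lines, with 1 library for each line, came from these 4 lines (the knockout lines, here without infection) and from 10 more (DMS114, DMS79, NCI-H128, NCI-H146, NCI-H446, NCI-H510, NCI-H524, NCI-H69, NCI-H82 and NCI-H889). The labels describe infection with guide RNA and no cloning of cells, the 2 guides stand as 1 combined sgPOU2F3 value per line in the deposited tables, and NCI-H1048 was grown in HITES medium.

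HOX genes encode homeodomain transcription factors that give cells their position along the body axis. They lie in 4 clusters, and genes of low number, at the 3' end of each cluster, are used early and toward the head, while genes of high number are used late and toward the tail. Polycomb proteins keep the clusters silent, MLL and trithorax proteins keep them active, retinoic acid induces the 3' genes, and the TALE proteins PBX and MEIS bind DNA together with HOX proteins. In the mouse, Hoxa5 and its relatives act in the mesenchyme of the developing lung.

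Promoter sequence was read from RefSeq (GRCh38.p14), which matched 20 of the 39 genes with 26 distinct start sites, and the windows searched were the 250 bases before each start. The sequences shown belong to the genes with an entry that had an unadjusted p under 0.05 after POU2F3 targeting, with the octamer-bearing start for HOXA3, and each stops where an exon annotated on the same strand in GENCODE 29 begins. Capitals mark the octamer ATGCAAAT, the motif that POU2F proteins recognise, on either strand.
HOXA2, chr7:27102812-27102933, minus strand: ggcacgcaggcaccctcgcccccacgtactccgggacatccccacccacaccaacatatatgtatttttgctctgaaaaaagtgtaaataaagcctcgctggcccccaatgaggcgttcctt
HOXA3, chr7:27150951-27151200, minus strand: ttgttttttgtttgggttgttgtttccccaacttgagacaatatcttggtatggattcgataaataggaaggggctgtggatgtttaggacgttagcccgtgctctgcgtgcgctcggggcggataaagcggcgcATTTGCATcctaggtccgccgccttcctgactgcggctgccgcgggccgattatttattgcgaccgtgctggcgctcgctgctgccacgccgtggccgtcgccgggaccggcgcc
HOXA4, chr7:27130800-27131007, minus strand: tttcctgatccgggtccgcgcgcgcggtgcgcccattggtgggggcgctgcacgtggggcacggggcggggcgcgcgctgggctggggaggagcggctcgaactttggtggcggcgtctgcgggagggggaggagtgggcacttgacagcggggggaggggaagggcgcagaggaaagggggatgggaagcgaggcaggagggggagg
HOXD3, chr2:176157057-176157306, plus strand: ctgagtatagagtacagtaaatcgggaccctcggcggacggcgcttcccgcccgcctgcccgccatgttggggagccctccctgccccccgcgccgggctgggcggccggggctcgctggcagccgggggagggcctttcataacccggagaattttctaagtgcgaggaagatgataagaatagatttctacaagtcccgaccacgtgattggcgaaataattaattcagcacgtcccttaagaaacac
HOXD8, chr2:176129455-176129693, plus strand: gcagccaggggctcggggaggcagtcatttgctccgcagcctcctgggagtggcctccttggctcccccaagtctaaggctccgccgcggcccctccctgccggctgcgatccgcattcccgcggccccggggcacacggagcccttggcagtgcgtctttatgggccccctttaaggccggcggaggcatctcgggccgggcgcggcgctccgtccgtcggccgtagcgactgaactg
The octamer stood before 2 of the 26 HOX starts (1 of 7 starts of HOXA3 and 1 of HOXA10), against 570 of 34943 distinct starts of all genes (1.63%). The HOXA3 start shown was chosen for its match. It lies far upstream, beyond the windows of HOXA4 and HOXA6, and the other HOXA3 starts had no match. The TALE-HOX motif TGATTNAT, on either strand and not overlapping the octamer in these windows, stood before 2 of the 26 HOX starts (HOXA2 and HOXD11), against 869 of all starts (2.49%). The match of HOXA2 lies in the part of its window that is not shown. A match is a string of letters in a window and does not show binding. The HOX windows held a median of 19.5 CpG dinucleotides, against 11 over all windows.

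Values are FPKM, that is fragments per kilobase of gene, scaled to the mapped fragments of the library. Depth, estimated from the smallest steps of FPKM, was 18 to 29.1 M fragments in the sgPOU2F3 columns, 9.28 to 14.9 M in sgNeg columns and 9.64 to 31.4 M in parental libraries. POU2F3 had 218 FPKM in sgPOU2F3 and 272 in sgNeg cells of COR-L311, 60.8 and 198 FPKM in NCI-H1048, 21.3 and 307 FPKM in NCI-H211, and 204 and 501 FPKM in NCI-H526. The targeted transcript was thus lower in all 4 lines, least so in COR-L311, and in parental libraries it had 189 to 387 FPKM in the 4 knockout lines and at most 0.608 FPKM in the other 10. In bulk RNA, fewer cells of a kind and less RNA per cell cannot be told apart. The 4 blood markers summed to at most 0.345 FPKM in any knockout column, and CD3E was at 0 in the sgPOU2F3 columns. The 6 fibroblast markers summed to 1.02 to 16.2 FPKM in sgPOU2F3 and 0.158 to 8.36 FPKM in sgNeg columns, highest in NCI-H211 in both arms, and 3 endothelial markers to 0.081 to 1.57 FPKM and 0.0337 to 0.941 FPKM. The 4 tuft cell markers, POU2F3 among them, summed to 75.9 to 533 FPKM in sgPOU2F3 and 265 to 1057 FPKM in sgNeg columns and were lower in sgPOU2F3 cells of all 4 lines. The part of these marker sums in the HOX ratios was not tested. Exons of 9 of the 39 genes (HOXB3, HOXB4, HOXB6, HOXC4, HOXC5, HOXC6, HOXC9, HOXD10 and HOXD11) share bases with another HOX gene on the same strand, and exons of 19 share bases with an antisense gene. The use of strand in counting is not stated, so the values of these genes are uncertain where such reads could be split.

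The parental lines differed widely in how many HOX genes they held at 1 FPKM or more. Of the 39 genes, COR-L311 had 26 at that level (60.5% of all genes in that library), NCI-H1048 had 29 (61.7%), NCI-H211 had 21 (58.6%) and NCI-H526 had 26 (63.6%). Among the other lines, DMS114 had 29 (60.5% of all genes), DMS79 had 35 (65.8%), NCI-H128 had 22 (62%), NCI-H146 had 20 (63.4%), NCI-H446 had 24 (59.8%), NCI-H510 had 29 (64.8%), NCI-H524 had 26 (64.4%), NCI-H69 had 31 (61.3%), NCI-H82 had 15 (58.7%) and NCI-H889 had 27 (61.8%). DMS79 therefore held nearly the whole family, and NCI-H82 the fewest members. The markers HOXA10, HOXB7 and HOXC8 were all found at 1 FPKM or more in the parental set, HOXA10 in 14 of 14 lines, HOXB7 in 11 and HOXC8 in 9. HOXD9 was the other gene present at that level in all 14 lines, at 2.37 to 30.8 FPKM (median 9.04). HOXB1, which patterns the hindbrain, reached 1 FPKM in no line and had at most 0.109 FPKM.

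**Figure D1:**
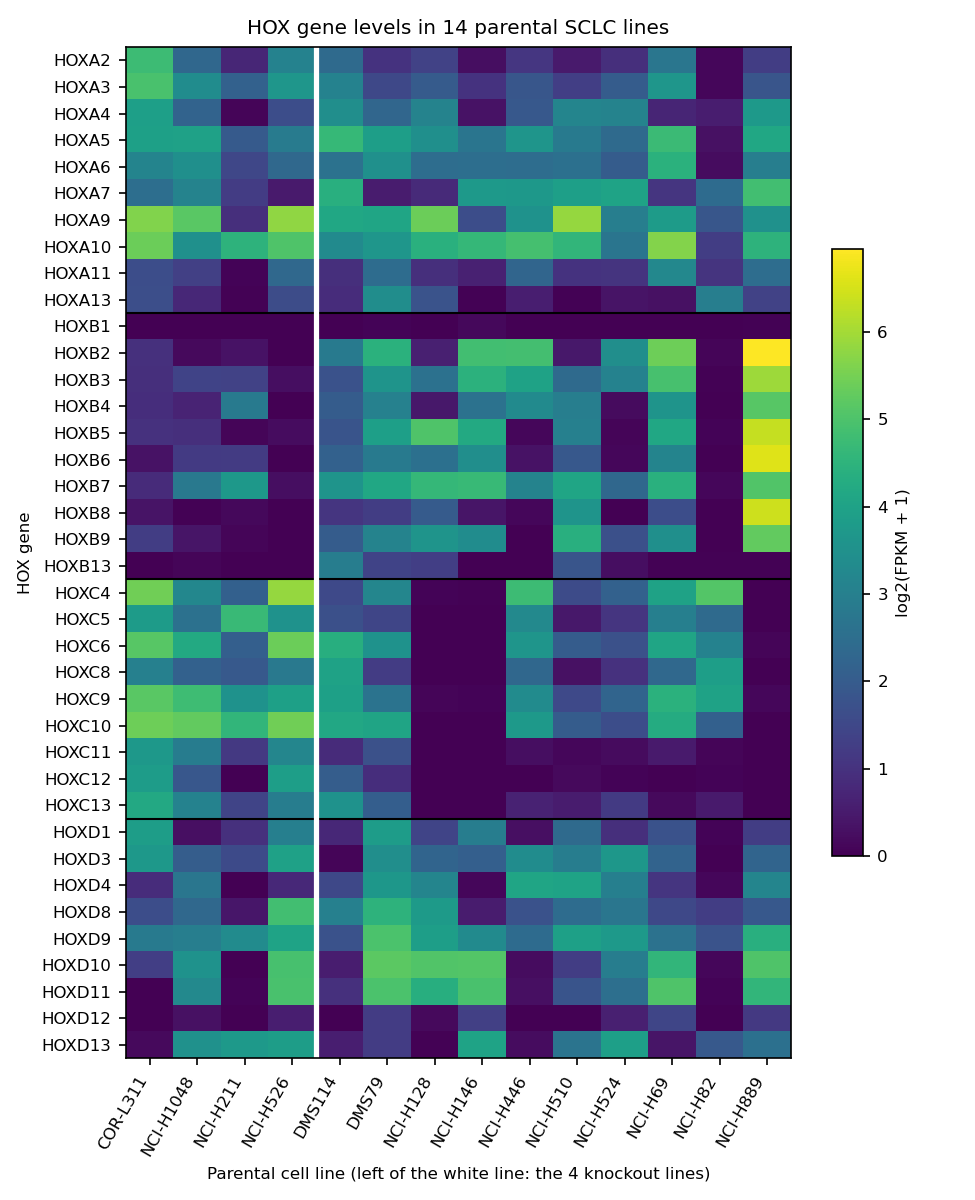
Levels of HOX genes (rows, by cluster) in 14 parental SCLC lines (columns), as log2(FPKM + 1) by colour, with the 4 knockout lines left of the white line. HOXC genes are dark in NCI-H128, NCI-H146 and NCI-H889, HOXB genes are dark in NCI-H526 and NCI-H82, and NCI-H889 has the brightest HOXB cells, up to 123 FPKM for HOXB2.

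The HOXC cluster (chromosome 12) was high in the POU2F3-expressing lines. The summed level of its 9 genes was 200 FPKM in NCI-H526, 70.7 in NCI-H211, 116 in NCI-H1048 and 216 in COR-L311, against a lowest, median and highest sum of 0.0784, 32.1 and 84.5 FPKM in the 10 other lines. NCI-H211, the lowest of the 4, lay within the range of the others, below DMS114 (84.5 FPKM), NCI-H69 (81.4), NCI-H82 (77.5) and NCI-H446 (72.8). NCI-H128, NCI-H146 and NCI-H889 had almost no HOXC RNA, with sums of 0.117, 0.0784 and 0.155 FPKM, while their HOXA sums were 92.9, 51.4 and 106 FPKM. These 3 lines also had the highest sums of the 6 neuroendocrine markers, 1224, 1296 and 1893 FPKM, a match seen after the values were known and not tested.

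HOXC11, a gene of the 5' part of the cluster that acts in kidney and limb patterning in the mouse, was the sole member that passed the test between the 4 knockout lines and the 10 others. It had 8.15 FPKM in NCI-H526, 1.23 in NCI-H211, 6.61 in NCI-H1048 and 12.1 in COR-L311, against a lowest, median and highest of 0, 0.125 and 2.29 FPKM in the other lines. The groups overlapped at a single place, since DMS79 at 2.29 FPKM lay above NCI-H211. The difference was 2.37 on the log2(FPKM + 1) scale (SE 0.45, 4 against 10 lines, limma adjusted p = 0.0354). That scale, with 1 added to every FPKM, understates the change of genes at low level. Over all 13226 genes tested, 0.212% passed as higher and 0.0378% as lower, and 1 of the 38 HOX genes tested passed as higher and none as lower. The call rests on the full set of lines: leaving out any of COR-L311, NCI-H1048, NCI-H526, NCI-H128, NCI-H146, NCI-H446, NCI-H510, NCI-H524, NCI-H69, NCI-H82 or NCI-H889 moved the limma adjusted p to between 0.0516 and 0.17, and with a pseudocount of 0.1 it was 0.0794.

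HOXC10, a neighbour of HOXC11 that acts in the lumbar spinal cord in the mouse, was the one HOX gene whose groups did not overlap. It had 42.6 FPKM in NCI-H526, 22.7 in NCI-H211, 37.9 in NCI-H1048 and 41.4 in COR-L311, against a lowest, median and highest of 0, 3.25 and 18.5 FPKM in the 10 other lines. Every one of the 4 lines lay above NCI-H69, the highest of the others. Its log2 difference of 2.97 (SE 0.83) did not pass (limma adjusted p = 0.205), and 0.401% of all genes tested had all 4 lines above all 10 others. No HOX gene had all 4 lines below all 10 others, against 0.25% of all genes.

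The remaining HOXC genes leaned the same way without passing. HOXC5 had 10.6 FPKM in NCI-H526, 25.0 in NCI-H211, 5.07 in NCI-H1048 and 13 in COR-L311, against a lowest, median and highest of 0, 1.42 and 8.69 FPKM in the others (log2 difference 2.33, SE 0.65, limma adjusted p = 0.201). HOXC12 had 13.9 FPKM in NCI-H526, 0 in NCI-H211, 2.73 in NCI-H1048 and 13.2 in COR-L311, against 0, 0.0252 and 3.16 FPKM as lowest, median and highest in the others. HOXC12 was thus carried by 3 of the 4 lines and did not pass (log2 difference 2.08, SE 0.61, limma adjusted p = 0.238). It reached 1 FPKM only in those 3 lines and DMS114, and met the filter through them. Without NCI-H211, the knockout line at 0 FPKM, it passed (log2 difference 2.88, limma adjusted p = 0.0257). That fit leaves out the value most against the difference, so its pass adds no support. HOXC13, a regulator of hair keratins, had 6.72, 1.67, 7.51 and 17.4 FPKM in NCI-H526, NCI-H211, NCI-H1048 and COR-L311, against 0, 0.435 and 10.6 FPKM as lowest, median and highest in the others. DMS114 held the highest value of the other lines for HOXC6, HOXC8, HOXC12 and HOXC13, and it also had the highest sum of the 6 fibroblast markers, 886 FPKM, against 0.361 to 184 FPKM in the remaining 9 lines. All 9 HOXC differences lay above 0, from 0.97 for HOXC8 to 2.97 for HOXC10 with a median of 2.08, beside a median of -0.00 over all genes tested. At an unadjusted p of 0.05, 9 HOX genes were higher (HOXA2, HOXA3, HOXC5, HOXC6 and HOXC9 to HOXC13), against 4.6% of all genes, and 5 were lower (HOXB2, HOXB3, HOXB5, HOXB7 and HOXB9), against 4.06% of all genes. The neuroendocrine markers moved with this comparison, summing to 35.1 to 371 FPKM in the 4 lines and 29.3 to 1893 FPKM in the others, with 4 of 6 and 6 of 6 at 1 FPKM or more in some line, and their part in the HOX differences was not tested.

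**Figure D2:**
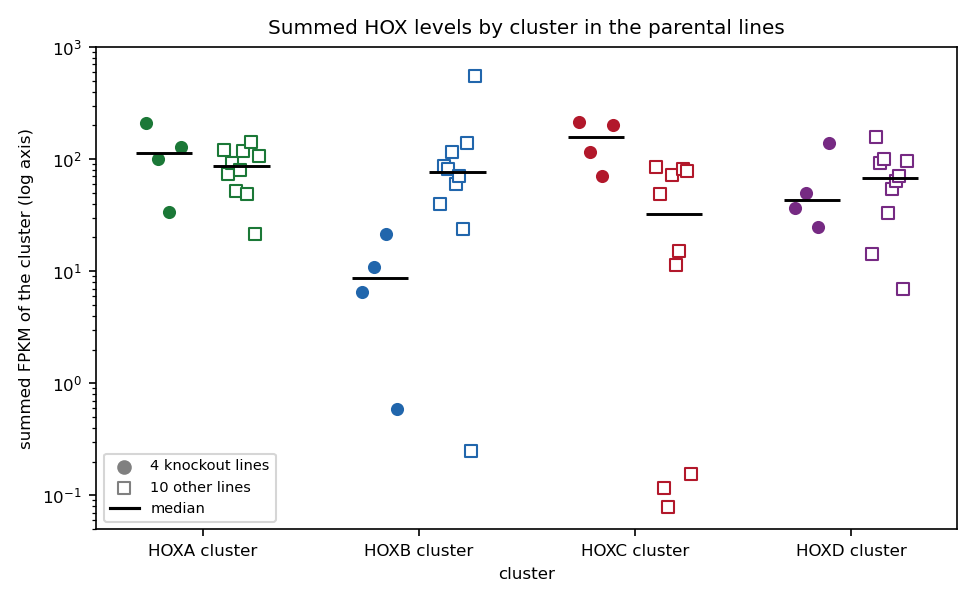
Summed FPKM of each HOX cluster (log axis) in each parental line, filled circles for the 4 knockout lines and open squares for the 10 others, with bars at the medians. HOXC sums were 70.7 to 216 FPKM in the 4 lines and 0.0784 to 84.5 FPKM in the others, and HOXB sums were 0.590 to 21.5 FPKM and 0.249 to 548 FPKM.

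The HOXB cluster (chromosome 17) ran the other way. Its 10 genes summed to 0.590 FPKM in NCI-H526, 21.5 in NCI-H211, 10.9 in NCI-H1048 and 6.46 in COR-L311, against a lowest, median and highest of 0.249, 76.4 and 548 FPKM in the other lines. NCI-H82, at 0.249 FPKM, was the one other line as low as these 4; the next, NCI-H524, had 24.0 FPKM. HOXB2, a hindbrain and neural crest gene, had 0, 0.254, 0.136 and 0.936 FPKM in NCI-H526, NCI-H211, NCI-H1048 and COR-L311, against 0.0707, 15.3 and 123 FPKM as lowest, median and highest in the others. HOXB9, a gene of the 5' part, had 0, 0.0710, 0.303 and 1.42 FPKM in the same order of lines, against 0, 8.53 and 37.8 FPKM in the others. The 4 lines were low in both genes but overlapped the others, through NCI-H82, NCI-H128 and NCI-H510 for HOXB2 and through NCI-H82 and NCI-H446 for HOXB9. All 9 HOXB genes tested had differences below 0, from -3.03 for HOXB2 to -0.76 for HOXB13 with a median of -1.71, and none passed (limma adjusted p from 0.368 for HOXB3 to 0.742 for HOXB4). HOXB7 had the highest level of the HOXB genes in NCI-H211 (11.9 FPKM) and in NCI-H1048 (5.95 FPKM). NCI-H889 stood far above the rest, with 123 FPKM of HOXB2, 97.3 of HOXB6, 85.0 of HOXB8 and 80.0 of HOXB5, and HOXB RNA made up 73.0% of its summed HOX level.

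The HOXA cluster (chromosome 7) and the HOXD cluster (chromosome 2) showed no shared shift between these groups. HOXA sums were 33.8 to 208 FPKM in the 4 lines and 21.5 to 143 FPKM in the others, and HOXD sums were 24.7 to 139 FPKM and 6.98 to 156 FPKM. Median differences were 0.02 over the 11 HOXA genes (6 above 0 and 5 below) and -0.03 over the 9 HOXD genes (4 above and 5 below). HOXA3, which patterns pharyngeal arch derivatives in the mouse, had the largest HOXA difference, with 11.6 FPKM in NCI-H526, 3.5 in NCI-H211, 9.35 in NCI-H1048 and 30.0 in COR-L311, against 0.0972, 2.61 and 11.6 FPKM as lowest, median and highest in the others (log2 difference 1.70, SE 0.58, limma adjusted p = 0.354). HOXA9, a gene known from leukaemia, had 54.3 FPKM in NCI-H526, 0.925 in NCI-H211, 34.8 in NCI-H1048 and 49.0 in COR-L311. NCI-H211 was thus far below its 3 companions in HOXA9, and within the HOXA cluster it was also below 0.1 FPKM in HOXA4, HOXA11 and HOXA13. HOXD13, the limb gene at the 5' end of its cluster, had 13.5 FPKM in NCI-H526, 12.2 in NCI-H211, 10.5 in NCI-H1048 and 0.132 in COR-L311, while HOXD10 and HOXD11 reached 29.6 and 29.7 FPKM in NCI-H526 and were at 0 and 0.0470 FPKM in NCI-H211.

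**Figure D3:**
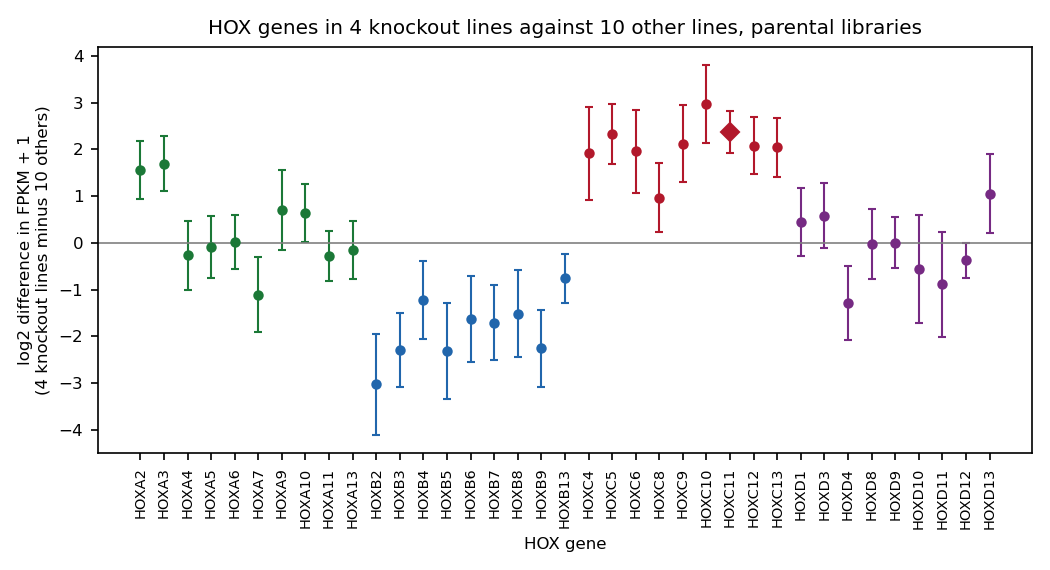
Difference of mean log2(FPKM + 1), the 4 knockout lines minus the 10 others, for HOX genes tested, with bars of 1 SE and the diamond for the gene that passed. All 9 HOXC genes lie above 0 and all 9 HOXB genes below it, and HOXC11 alone, at 2.37, passed at an adjusted p of 0.05.

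Across the 14 parental lines, genes of the HOXC cluster varied together, with a median Pearson correlation of 0.734 over 36 pairs, and so did HOXB genes, with 0.684 over 36 pairs. HOXD pairs had a median of 0.379 and HOXA pairs 0.321, and pairs of a HOXB with a HOXC gene had a median of -0.489 over 81 pairs. These are descriptions over lines that share one table and differ in depth. Without the pair of lines farthest out in the mean level of the genes paired, medians were 0.663 for HOXC, 0.525 for HOXB and 0.249 for HOXD. They were 0.277 for HOXA and -0.555 between HOXB and HOXC. That last median left out NCI-H69 and NCI-H82 and kept NCI-H128, NCI-H146 and NCI-H889, which had almost no HOXC RNA. It therefore cannot show whether the negative value rests on them. The HOXC median still held NCI-H889. Medians changed sign for HOXA with HOXD (0.171 to -0.0975) and HOXA with HOXB (0.122 to -0.000709), and the remaining pairings kept theirs. In the HOXA cluster the likeness sat in blocks: HOXA2 and HOXA3 had a correlation of 0.961 and HOXA5 and HOXA6 of 0.9, but HOXA3 and HOXA4 had 0.317 and HOXA6 and HOXA7 had -0.0924. HOXD10 and HOXD11, which share exon bases, had 0.974. Among 13188 other genes, the pattern nearest to the mean of each cluster belonged to IGSF8 for HOXA (Pearson 0.876), SP6 for HOXB (0.901), DCPS for HOXC (0.846) and TRAPPC6B for HOXD (0.869), each over 14 lines.

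After POU2F3 targeting no HOX gene passed the test across the 4 lines. Of 33 members tested, 0 were higher and 0 lower at a limma adjusted p of 0.05, beside 0.0161% of all 12387 genes higher and 0% lower. The 6 untested members, HOXB1, HOXB8, HOXB9, HOXB13, HOXD4 and HOXD12, were at 1 FPKM in fewer than 4 of the 8 columns. At an unadjusted p of 0.05, 6 members were lower (HOXA2, HOXA3, HOXA4, HOXD3 and HOXD8 among them) against 7.08% of all genes, and 0 were higher against 4.67%. In 4 of 4 lines, 10 of 33 members (30.3%) were lower in sgPOU2F3 cells, against 12.9% of all genes, among them HOXA2, HOXA3, HOXA5, HOXA9, HOXA11, HOXC5, HOXD3, HOXD8 and HOXD10. In NCI-H211, however, HOXA11 was at 0.121 FPKM in sgPOU2F3 and 0.157 in sgNeg cells, and HOXD10 at 0.0457 and 0.0601 FPKM. The log2 ratio of HOXD10 was also only -0.02 in NCI-H1048 and -0.04 in NCI-H526. HOXB6 was the one member higher in 4 of 4 lines, against 9.81% of all genes, but in NCI-H526 it was at 0.0196 FPKM in sgPOU2F3 and 0 in sgNeg cells, and its mean log2 ratio was 0.32 over 4 lines and 0.03 without COR-L311. The median mean log2 ratio was -0.16 over the 33 members and -0.02 over all genes.

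HOXA3 had the lowest mean ratio of the members tested, and HOXA2 and HOXA4 were also low, as was HOXC5, at -0.81 over 4 lines and -0.29 without NCI-H211. HOXA3 had 17.3 FPKM in sgPOU2F3 and 36.4 in sgNeg cells of COR-L311, 7.41 and 14.4 FPKM in NCI-H1048, 3.02 and 8.24 FPKM in NCI-H211, and 9.95 and 15.6 FPKM in NCI-H526. It was lower in sgPOU2F3 cells of all 4 lines, and its log2 ratio averaged -0.93 ± 0.25 (SD, n = 4 lines, limma unadjusted p = 0.000316, adjusted p = 0.28). HOXA2, which sets the identity of the second pharyngeal arch, had 18.1 and 32 FPKM in sgPOU2F3 and sgNeg cells of COR-L311, 2.79 and 5.02 FPKM in NCI-H1048, 1.25 and 2.08 FPKM in NCI-H211, and 8.27 and 13.4 FPKM in NCI-H526. Its ratio varied little between lines, at -0.64 ± 0.14 (SD, n = 4 lines, limma adjusted p = 0.329).

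HOXA4 followed in 3 lines, with 9.12 FPKM in sgPOU2F3 and 19.8 in sgNeg cells of COR-L311, 1.83 and 4.60 FPKM in NCI-H1048, and 0.892 and 1.89 FPKM in NCI-H526, and stood at 0.622 and 0.442 FPKM in NCI-H211. From HOXA5 on, the mean ratios were closer to 0, from -0.28 for HOXA5 and -0.27 for HOXA11 to 0.01 for HOXA6, with HOXA9 at -0.22 and HOXA10 at -0.18. This split from HOXA2 to HOXA4 held within COR-L311 and NCI-H526 but not within the other lines. In NCI-H1048 HOXA11 (-0.75) lay below HOXA2 (-0.67), and in NCI-H211 HOXA5 (-0.63) lay below HOXA2 (-0.45). SKAP2, an adaptor protein gene that borders the 3' end of the cluster, had 42.9 FPKM in sgPOU2F3 and 82 in sgNeg cells of COR-L311, 17.4 and 45.8 FPKM in NCI-H1048, 21.1 and 44.2 FPKM in NCI-H211, and 24.9 and 40.1 FPKM in NCI-H526. Its mean ratio of -0.99 ± 0.28 (SD, n = 4 lines, limma adjusted p = 0.232) was as low as that of HOXA3, while SNX10 beyond it was at -0.08 and HIBADH on the far side of the cluster at -0.12. In the separately normalized parental table, SKAP2 had 21.4 FPKM in NCI-H211 and 21.2 in NCI-H526, beside the sgPOU2F3 values of these lines. In COR-L311 and NCI-H1048 its parental values, 92.6 and 49.0 FPKM, lay above both knockout columns. In the HOXD cluster, HOXD8 had 2.60 FPKM in sgPOU2F3 and 3.74 in sgNeg cells of COR-L311, 6.35 and 7.70 FPKM in NCI-H1048, 0.880 and 1.99 FPKM in NCI-H211, and 14.5 and 18.4 FPKM in NCI-H526. It was lower in all 4 lines, with a mean ratio of -0.41 ± 0.18 (SD, n = 4 lines, limma adjusted p = 0.399), and HOXD3 averaged -0.39 ± 0.23 (limma adjusted p = 0.408). HOXA3 and HOXA4 share exon bases with the antisense genes HOXA-AS2 and HOXA-AS3, which are not in the tables used here.

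**Figure D4:**
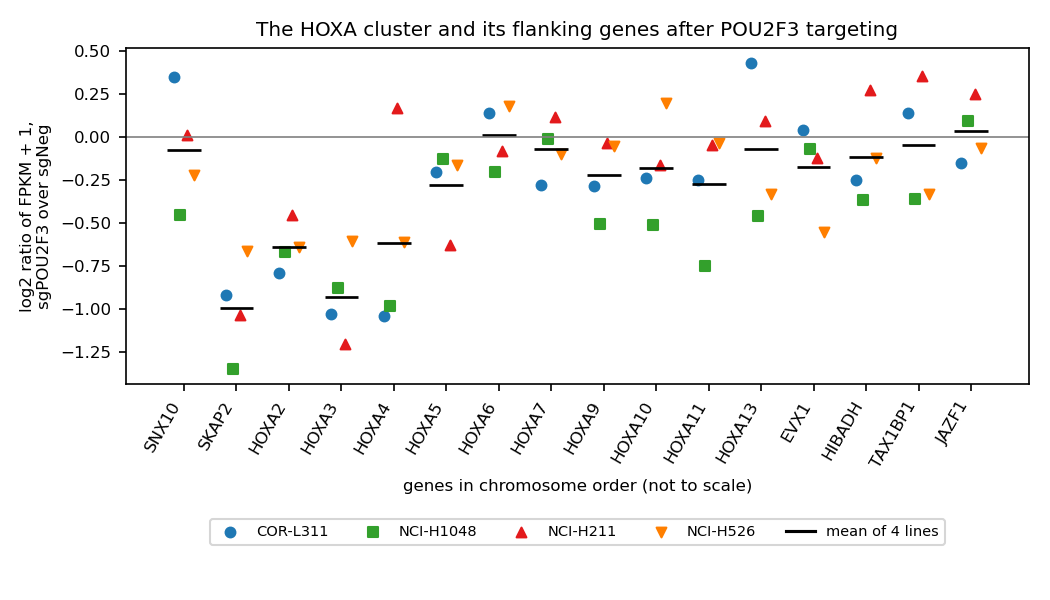
Log2 ratio of FPKM + 1, sgPOU2F3 over sgNeg, for HOXA genes and their flanking genes in chromosome order, with a symbol for each line and a bar at the mean of 4 lines. SKAP2, HOXA2 and HOXA3 lie below 0 in all 4 lines, as do HOXA5, HOXA9 and HOXA11. The means from HOXA5 to HOXA13 lie between -0.28 and 0.01.

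The sgNeg columns themselves stood above the untreated parental library of the same line for most HOX genes, in tables that were normalized separately. Over the members at 1 FPKM or more in any of the libraries of a line, sgNeg was higher than parental for 28 of 33 members in COR-L311, 32 of 33 in NCI-H1048, 26 of 26 in NCI-H211 and 21 of 26 in NCI-H526. The median log2 difference, sgNeg minus parental, was 0.39 over the members in NCI-H526, 0.71 in NCI-H211, 0.58 in NCI-H1048 and 0.35 in COR-L311, beside 0.07, 0.12, 0.10 and 0.03 over all genes at that level. The medians over all genes were thus also positive, and the share of all genes above parental is not given here. HOXA3 in NCI-H211 was at 3.02 FPKM in sgPOU2F3, 8.24 in sgNeg and 3.5 in parental cells, and HOXA2 in NCI-H526 at 8.27, 13.4 and 7.45 FPKM. In both cases the sgPOU2F3 value lay beside the parental value and the sgNeg value above both. In COR-L311, by contrast, HOXA2 was at 18.1 FPKM in sgPOU2F3, 32 in sgNeg and 26.4 in parental cells. For HOXA2 to HOXA4, 5 of the 12 gene and line pairs had a parental value closer to sgPOU2F3 than to sgNeg. Over the members at 1 FPKM or more, this held for 11 of 33 in COR-L311, 20 of 33 in NCI-H1048, 18 of 26 in NCI-H211 and 15 of 26 in NCI-H526. The share of all genes is not given here. Infection, culture and library cannot be told apart in these differences.

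Within single lines the ratios have no replicate check, and members were counted by size alone, at a log2 ratio of 1 or more in either direction. COR-L311, in which POU2F3 RNA was least reduced, had 3 of 33 higher (HOXB5, HOXB6 and HOXB8), against 4.28% of all genes, and 5 lower (HOXA3, HOXA4, HOXC11 and HOXD1 among them), against 2.12%. HOXB5 had 14.8 FPKM in sgPOU2F3 and 4.21 in sgNeg cells, HOXB6 had 12.4 and 4.84, and HOXB8 had 12.9 and 3.95. The HOXB sum of this line was 95.8 FPKM in sgPOU2F3, 54.7 in sgNeg and 6.46 in parental cells, and HOXB2 to HOXB8 were at 1 FPKM or more in both knockout columns and below it in the parental library. The sgNeg and parental libraries of COR-L311 thus differed in HOXB by more than its sgPOU2F3 and sgNeg cells did. Of its HOXC genes, HOXC4, HOXC6, HOXC8, HOXC9 and HOXC10 were above sgNeg (log2 ratios of 0.61 to 0.98), and HOXC5, HOXC11, HOXC12 and HOXC13 were below it (-0.37, -1.05, -0.50 and -0.52). HOXC10 had 81.2 FPKM in sgPOU2F3 and 48.0 in sgNeg cells, and HOXC11 had 10.4 and 22.6 FPKM. The 6 neuroendocrine markers summed to 616 FPKM in sgPOU2F3 and 249 FPKM in sgNeg cells of this line, and their part in these ratios was not tested.

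NCI-H211, in which POU2F3 RNA was most reduced, had 0 of 26 members higher (6.86% of all genes) and 4 lower (HOXA3, HOXC5, HOXC10 and HOXD13), against 4.83% of all genes. With a pseudocount of 0.1 in place of 1, the counts were 1 higher (HOXB8, at 1.33 FPKM in sgPOU2F3 and 0.535 in sgNeg cells) and 8 lower. The share of all genes at that pseudocount is not given here, so these counts cannot be read as particular to HOX genes. HOXC5 had the largest ratio of any member in any line, with 5.99 FPKM in sgPOU2F3, 35.4 in sgNeg and 25.0 in parental cells (log2 ratio -2.38), while its ratio in the other 3 lines was -0.37 to -0.15. HOXC4 and HOXC6, with which HOXC5 shares exon bases, had ratios of -0.52 and -0.37 in this line. HOXC10 had 20.4 FPKM in sgPOU2F3, 46.1 in sgNeg and 22.7 in parental cells, so that here the sgNeg value was the one apart. HOXD13 had 6.34 FPKM in sgPOU2F3, 16.4 in sgNeg and 12.2 in parental cells. The median ratio of NCI-H211 was -0.41 over its 26 members, beside -0.03 over all genes, and its neuroendocrine markers summed to 17.3 FPKM in sgPOU2F3 and 63.8 FPKM in sgNeg cells.

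NCI-H1048 had 0 of 33 members higher (1.2% of all genes) and 0 lower (1.03%), and NCI-H526 had 0 of 26 higher (2.05%) and 0 lower (0.496%). With a pseudocount of 0.1, 2 members of NCI-H1048 and 1 member of NCI-H526 were lower by that size, and 0 higher in either line. For these lines, too, the share of all genes at that pseudocount is not given here. The ratio nearest to the limit in NCI-H1048 was -0.98 for HOXA4, and all 11 of its HOXA genes were below 0. In NCI-H526 the HOXB cluster was close to silent in both arms, with sums of 0.247 FPKM in sgPOU2F3 and 0.370 FPKM in sgNeg cells, and HOXC sums were 293 and 290 FPKM. HOXC10, the gene whose parental groups did not overlap, was at 80.1 FPKM in sgPOU2F3 and 76.3 FPKM in sgNeg cells of NCI-H526 and at 50.8 and 62.0 FPKM in NCI-H1048. Over all 4 lines the log2 ratio averaged -0.15 ± 0.79 for HOXC10 and -0.25 ± 0.59 for HOXC11 (SD, n = 4), with 2 lines above 0 and 2 below for each gene.

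**Figure D5:**
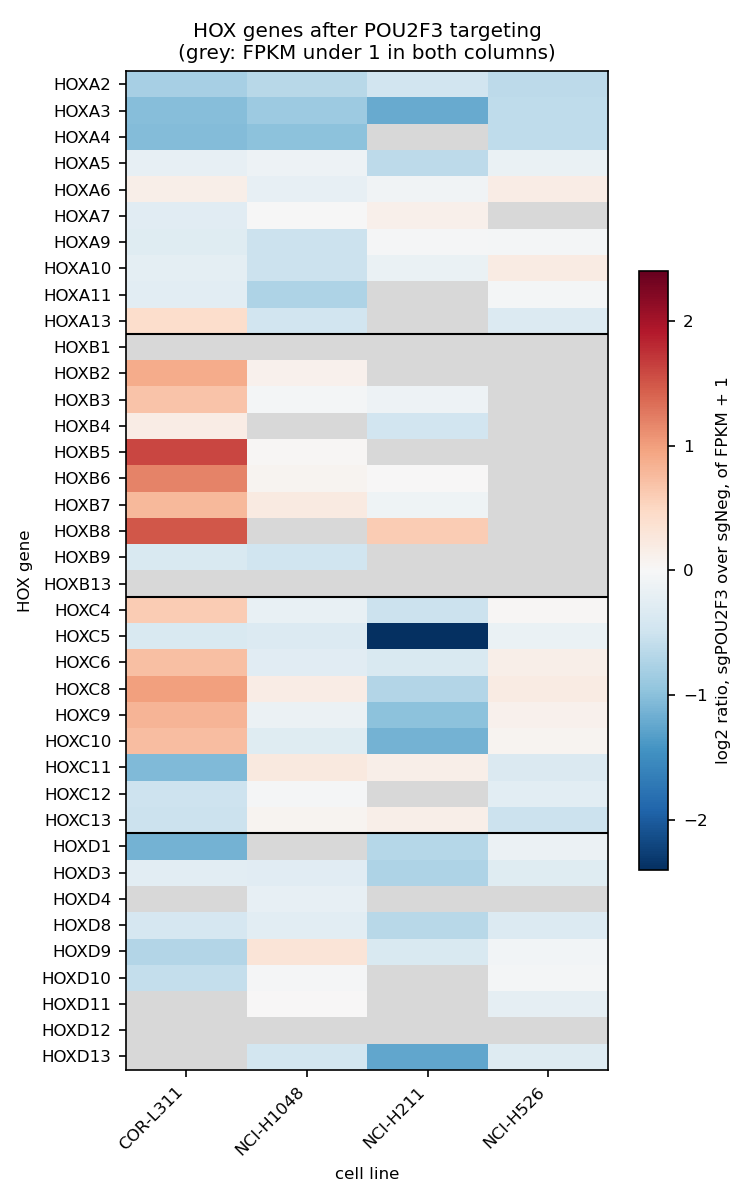
Log2 ratio of FPKM + 1, sgPOU2F3 over sgNeg, for HOX genes (rows) in 4 lines (columns), with grey where both columns were under 1 FPKM. HOXA2 and HOXA3 are blue in all 4 lines, as are HOXA5, HOXA9, HOXC5, HOXD3 and HOXD8, faintly in some cells. Most HOXB genes and HOXC4, HOXC6 and HOXC8 to HOXC10 are red in COR-L311, and HOXC5 in NCI-H211, at -2.38, is the darkest cell.

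Partners and regulators of HOX genes were read from lists in the same fits. Of 9 TALE cofactors, PBX3 was lower in the 4 parental lines, with 0.806 to 6.65 FPKM against 9.28 to 48.6 FPKM in the 10 others (log2 difference -2.94, SE 0.46, limma adjusted p = 0.00644), and the other 8 did not pass. After targeting, the mean ratio on the log2 scale was 0.62 ± 0.35 for PBX3 (SD, n = 4 lines, above 0 in 4 of 4), while PKNOX2 had -0.74 ± 0.32 (below 0 in 4 of 4). Neither ratio passed (limma adjusted p of 0.388 and 0.369). Of 24 Polycomb genes and 19 MLL and trithorax genes tested, 0 passed in either comparison, and the median differences lay between -0.05 and 0.00. Of 26 CDX, ParaHox and retinoic acid genes, 13 were tested after targeting and 17 in parental lines, and 0 passed. Of the genes flanking the clusters, 18 were tested after targeting and 19 in parental lines, and 0 passed.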

How the data were processed

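RNA-seq of polyA RNA (TruSeq kit v2) was deposited by the authors as FPKM per gene: a table of 14 parental libraries and 4 tables with an sgPOU2F3 and an sgNeg column each, made from 12 knockout libraries. Per the submitters' processing notes, TopHat2, Cufflinks, Cuffdiff and hg19 were used; versions and the use of strand are not given in the sources used here. The 2 sgPOU2F3 guides of a line are combined by the authors in 1 deposited FPKM column, so a line gives 1 value per arm and the 4 lines are the replicates, paired by line. From the deposited FPKM, log2(FPKM + 1) was computed and fitted with limma 3.58.1 (R 4.3.3, trend in the variance) over all genes at 1 FPKM or more in at least 4 columns: sgPOU2F3 against sgNeg with line as a term, and the 4 knockout lines against 10 others over parental libraries. P-values were adjusted by Benjamini-Hochberg over all genes tested, with a threshold of 0.05. Within a line ratios have no test. The parental lines have 1 library each, so p-values measure the spread between lines. Depth was estimated from FPKM steps of 1748 genes with 1 transcript, and gene overlap was read from GENCODE 29. The fits were tested on simulated data. All 39 HOX genes enter the counts, sums and fits; the individual results of a few genes are not reported here. Other genes named are POU2F3, those past the threshold or up to 3 of smallest p in each list, flanking genes, and the gene most like each cluster; SNX10 and HIBADH were chosen after their values were seen. The members and lists were chosen with earlier results of these data known. Of the list of HOX cluster non-coding RNAs, 0 of 30 symbols are in the tables used here, and 4 of the 23 MLL and trithorax symbols are older names that these tables do not use. Alternatives were the pseudocount, the filter, the scaling, the trend, the line term and leaving out each line.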

Additional observations from a re-analysis of the deposited data

Results flagged for a closer look

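Over 109 sets of 4 or 10 values, 14 held a value farther from its nearest neighbour than Dixon's limit allows. Chance flags about 1 in 20 sets where sets are independent and values normally distributed. Genes of a HOX cluster can vary together and some values were at 0, so the 14 cannot be set against that rate. On the log2 ratio of sgPOU2F3 over sgNeg, NCI-H211 stood below the other 3 lines for HOXC5 (-2.38), HOXD3 (-0.74) and HOXA5 (-0.63). COR-L311 stood above the other 3 lines for HOXB5 (1.60), HOXB6 (1.20) and HOXB3 (0.69), and below them for HOXD10 (-0.57). Among the 4 knockout lines in the parental table, on log2(FPKM + 1), NCI-H211 was apart for HOXA9 (0.94), COR-L311 for HOXD13 (0.18), and NCI-H1048 for HOXB13 (0.0933), a gene at 0 in the other 3. Among the 10 other lines, on the same scale, NCI-H82 was low for HOXA5 (0.32), NCI-H889 high for HOXB6 (6.62), DMS79 high for HOXC11 (1.72) and DMS114 high for HOXC12 (2.06). Of the 7 ratios that stood apart after targeting, 4 came from COR-L311 and 3 from NCI-H211.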

How the results depend on the processing

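The count of HOX genes past the threshold after targeting was 0 under all 12 alternatives, including the fit with no replicate block (0), in which arm was the only term; samples are paired by cell line, and the main fit has line as its block. Calls over all genes were 2 in that comparison and 0 to 2 under its alternatives. Between parental groups the HOX count was 1, and it was 0 with a pseudocount of 0.1 and 0 with a filter of 5 FPKM in at least 4 libraries, under which HOXC11 was not tested; leaving out 1 line at a time gave 0 to 2, with 2 without NCI-H211 and 1 without DMS114 or without DMS79. Calls over all genes were 33 there, 17 without COR-L311 and 21 without NCI-H526. With a pseudocount of 0.1, members at a log2 ratio of 1 or more numbered 9 in NCI-H211, 2 in NCI-H1048 and 1 in NCI-H526. At 5 FPKM in place of 1, the parental counts were 19 in NCI-H1048, 8 in NCI-H211, 17 in DMS114, 23 in DMS79, 13 in NCI-H128, 15 in NCI-H446, 14 in NCI-H510, 12 in NCI-H524 and 5 in NCI-H82. The shares of all genes at 5 FPKM and at a pseudocount of 0.1 are not given here, nor are the counts of the lines not named. These counts therefore cannot be read as particular to HOX genes. No called value changed sign. The cause of these changes was not tested. The planned fit with each guide as its own library was not run, since the columns combine the guides. The sgNeg columns had lower estimated depth than the combined sgPOU2F3 columns, which limits genes under 1 FPKM.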

Other observations

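Several parental lines had 1 cluster near 0 beside another that was high: NCI-H82 and NCI-H526 had HOXB sums under 1 FPKM with HOXC sums of 77.5 and 200 FPKM, and NCI-H128, NCI-H146 and NCI-H889 had HOXC sums under 1 FPKM with HOXB sums of 81.8, 116 and 548 FPKM. No line had both sums under 1 FPKM. Within HOXC clusters that were otherwise high, 5' genes were low in some lines: NCI-H82 had 32.8 FPKM of HOXC4 and 13.8 of HOXC8 with 0.0719 of HOXC11 and 0.0511 of HOXC12, and NCI-H69 had 18.5 FPKM of HOXC10 with 0.424 of HOXC11 and 0 of HOXC12. In NCI-H524, HOXB2, HOXB3 and HOXB7 were at 9.80, 7.51 and 3.98 FPKM while HOXB4, HOXB5 and HOXB6 between them were at 0.142, 0.0604 and 0.0884 FPKM. NCI-H446 held HOXB2, HOXB3 and HOXB4 at 28.1, 15.2 and 8.93 FPKM and HOXB5 and HOXB6 at 0.0978 and 0.269 FPKM. These values were chosen after the levels were seen and were not tested.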
